A study of Mus musculus with 12 samples.

Results

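Myeloid C-type lectin receptors are surface proteins by which phagocytes recognise sugars and lipids of microbes and of damaged cells. The 10 receptor genes described here are Clec4a1, Clec4a2, Clec4a3, Clec4d, Clec4e, Clec4n, Clec5a, Clec7a, Clec10a and Clec12a. They were taken by gene name from the count tables of both cell types, each of which listed 52636 genes, and all 10 were present in both and had enough counts to be tested. RNA was sequenced from bone marrow neutrophils and from bone marrow monocytes of C57BL/6 J mice of 8 to 12 weeks. Neutrophils were put in culture straight after enrichment, and monocytes were first grown for 3 days with 10 ng/ml M-CSF (named monocytes/macrophages in the labels, macrophages below). Each cell type then received 1 nM CGRP, the neuropeptide calcitonin gene-related peptide, or saline (PBS) for 4 h, so that the 4 groups were saline and CGRP neutrophils and saline and CGRP macrophages, with 3 libraries each. The sources used here do not say whether the 3 libraries of a group came from separate mice or cultures, so the p-values measure the spread between libraries only.

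The libraries held between 2002559 and 3631989 counts of unique molecules. Levels are given as CPM, each gene's count as a share of its library's total on the usual CPM scale, with the totals adjusted by the TMM factors of all 12 libraries, and 3 counts in a library corresponded to between 0.826 and 1.50 CPM. Markers of the labelled cell types were present. The 12 neutrophil markers summed to 195100 ± 37410 CPM (SD, n = 3) in saline neutrophils and to 344 ± 46.6 CPM in saline macrophages, where Ly6g had no count in 1 library. C1qb, a complement gene of macrophages, was at 4240 ± 239 CPM in saline macrophages and at 86.6 ± 4.23 CPM in saline neutrophils. The neutrophil libraries also held RNA typical of other marrow cells, with summed levels under saline of 6061 ± 773 CPM for the erythroid markers, 1078 ± 113 CPM for the mast cell and basophil markers and 595 ± 39.5 CPM for the eosinophil markers.

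C-type lectin receptors fall into activating and inhibitory kinds. Dectin-2 (Clec4n), MCL (Clec4d) and Mincle (Clec4e) pair with the Fc receptor gamma chain, MDL-1 (Clec5a) pairs with DAP12, and Dectin-1 (Clec7a) carries its own activating motif, and all of these act through the kinase Syk and, for most, the adaptor CARD9. DCIR (Clec4a2) and MICL (Clec12a) carry an inhibitory motif that can recruit the phosphatases SHP-1 and SHP-2.

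Of the receptor genes, 9 lie on chromosome 6 of GRCm38 and Clec10a lies on chromosome 11. The DNA in front of the start site is shown for the 3 receptor genes with the smallest adjusted p in neutrophils, as the 250 bases before the RefSeq start on the gene's strand (GRCm38.p6). Capitals mark matches to the letters TTGCNNAA, a core that C/EBP factors bind, and GAGGAA, a core that PU.1 binds, both searched on both strands. Clec4d (ENSMUSG00000030144) is annotated at chr6:123262111-123275265 on the plus strand, and its window is chr6:123261857-123262106. Clec4e (ENSMUSG00000030142) is annotated at chr6:123281789-123289870 on the minus strand, and its window is chr6:123289872-123290121. Clec12a (ENSMUSG00000053063) is annotated at chr6:129342691-129365303 on the plus strand, and its window, chr6:129349994-129350243, lies inside that GENCODE gene because the RefSeq start is farther downstream.
Clec4d: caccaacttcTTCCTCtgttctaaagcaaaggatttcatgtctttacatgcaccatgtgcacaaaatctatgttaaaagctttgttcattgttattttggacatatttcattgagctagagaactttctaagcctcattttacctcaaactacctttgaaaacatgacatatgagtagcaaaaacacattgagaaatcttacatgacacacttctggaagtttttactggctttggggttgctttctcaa
Clec4e: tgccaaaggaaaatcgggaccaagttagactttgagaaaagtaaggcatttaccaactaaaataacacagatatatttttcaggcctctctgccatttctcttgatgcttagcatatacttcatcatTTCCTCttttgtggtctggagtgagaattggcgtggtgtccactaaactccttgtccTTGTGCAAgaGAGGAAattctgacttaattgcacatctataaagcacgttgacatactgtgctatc
Clec12a: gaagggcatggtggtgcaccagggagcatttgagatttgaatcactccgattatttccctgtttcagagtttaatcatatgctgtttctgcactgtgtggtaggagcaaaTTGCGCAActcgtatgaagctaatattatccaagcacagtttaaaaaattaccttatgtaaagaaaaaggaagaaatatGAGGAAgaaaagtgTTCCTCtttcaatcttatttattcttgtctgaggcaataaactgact

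The windows of Clec4e and Clec12a held a match to the C/EBP letters, TTGTGCAA beginning 66 bases before the start in Clec4e and TTGCGCAA beginning 140 bases before the start in Clec12a, whereas the window of Clec4d held only a PU.1 match, 240 bases before its start. RefSeq windows were matched for 8 of the 10 receptor genes. Among these 8, 7 held the PU.1 letters and 2 held the C/EBP letters, and the same letters were found in 23.3% and 9.56% of 32851 promoter windows of this length. The cyclic AMP response element TGACGTCA, which is in 1.55% of those windows, and its half-site TGACG, which is in 17.8%, were not among the letters of the receptor genes' windows. These matches describe letters and not binding.

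In neutrophils, Clec4d, Clec4e and Clec4n rose under CGRP and Clec12a fell, so that 4 of the 10 receptor genes passed the test against 2.53% of the 9819 genes tested. In macrophages, Clec4e, Clec4n and Clec4a1 rose and Clec5a fell, again 4 of 10, against 7.43% of 9393 genes. The direction shares of all genes tested were 1.51% higher and 1.02% lower in neutrophils and 3.46% higher and 3.97% lower in macrophages. All tests of CGRP are limma-voom on the 6 libraries of a cell type, two-sided, with Benjamini-Hochberg adjustment over all genes tested and a threshold of 0.05. The median log2 fold change of the 10 genes was 0.15 in neutrophils and 0.41 in macrophages, beside medians of 8.0e-04 and 0.0047 over all genes tested. The 3 saline and 3 CGRP libraries did not overlap for 6 of the 10 genes in neutrophils and 8 of the 10 in macrophages, beside 17.8% and 24.1% of all genes tested. In these bulk samples, fewer cells of a type and less RNA per cell cannot be told apart.

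**Figure D1:**
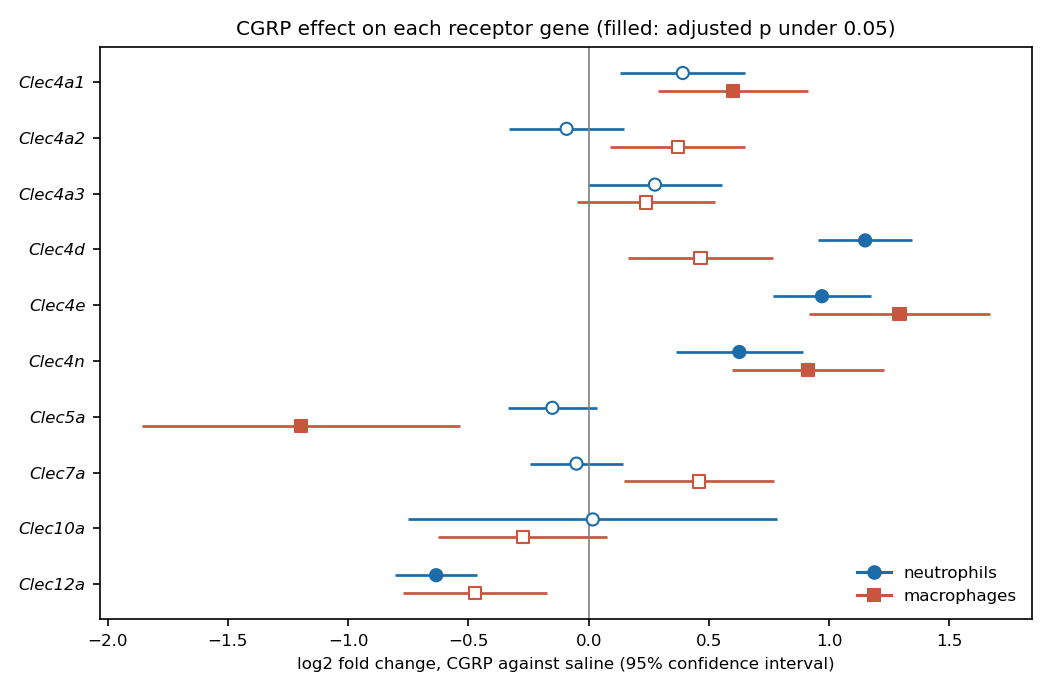
Log2 fold change of CGRP against saline for each receptor gene, with 95% confidence intervals, in neutrophils (circles) and macrophages (squares). Filled symbols have an adjusted p under 0.05, and the filled neutrophil symbols on the right are Clec4d at 1.15, Clec4e at 0.97 and Clec4n at 0.63.

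Clec4d, which encodes MCL, a partner of Mincle in sensing mycobacterial glycolipid, was the receptor gene with the smallest adjusted p in neutrophils. It stood at 100, 116 and 105 CPM in the saline neutrophils and at 255, 218 and 234 CPM in the CGRP neutrophils. Every CGRP library was therefore far above every saline library, a 2.22-fold rise (log2 fold change 1.15, SE 0.094, limma-voom adjusted p = 1.31e-07). In macrophages the same gene read 301, 327 and 244 CPM under saline and 439, 407 and 352 CPM under CGRP. The macrophage groups also did not overlap, but the lowest CGRP library lay close above the highest saline library, and the log2 fold change of 0.46 (SE 0.14) did not pass (limma-voom adjusted p = 0.0614). It passed in 4 of 10 alternatives (lowest adjusted p 0.0118) and without saline replicate 2 (limma-voom adjusted p = 0.0257).

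Clec4e encodes Mincle, the receptor for trehalose dimycolate of mycobacteria and for a nuclear protein released by dying cells. Its level in neutrophils was 124, 121 and 112 CPM under saline and 266, 219 and 211 CPM under CGRP. In macrophages it was 33.2, 32.9 and 22.9 CPM under saline and 73.1, 67.4 and 77.7 CPM under CGRP. All CGRP libraries of each cell type exceeded all its saline libraries. The rise was 1.96-fold in neutrophils (log2 fold change 0.97, SE 0.098, limma-voom adjusted p = 2.99e-06). It was 2.45-fold in macrophages, where Clec4e had the smallest adjusted p of the 10 genes (log2 fold change 1.29, SE 0.18, limma-voom adjusted p = 1.59e-04).

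Clec4n (ENSMUSG00000023349, chr6:123229843-123247021, plus strand) encodes Dectin-2, which binds mannans of fungal walls. Saline neutrophils had 44.0, 42.8 and 46.3 CPM and CGRP neutrophils 78.7, 63.9 and 61.1 CPM. Saline macrophages had 49.2, 47.2 and 43.0 CPM and CGRP macrophages 90.0, 79.9 and 93.8 CPM. The groups were apart in both cell types, with the widest spread among the CGRP neutrophils, whose first library was the highest. Clec4n rose 1.54-fold in neutrophils (log2 fold change 0.63, SE 0.13, limma-voom adjusted p = 0.00651) and 1.88-fold in macrophages (0.91, SE 0.15, limma-voom adjusted p = 9.20e-04). The neutrophil call was lost when saline replicate 2 was left out (limma-voom adjusted p = 0.0596), and Clec4n in macrophages passed without any one library.

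**Figure D2:**
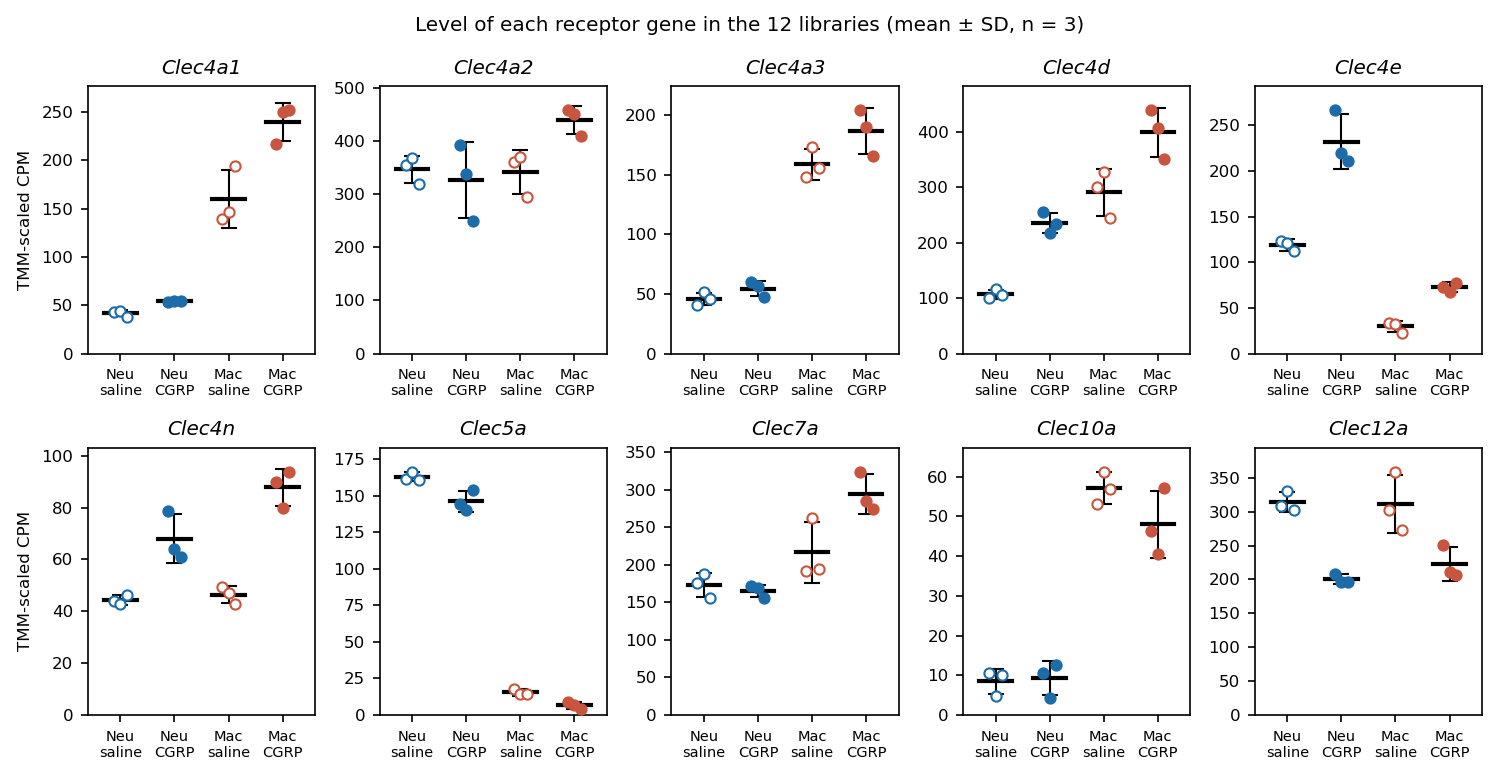
Level of each receptor gene in CPM scaled by TMM, on a linear axis from 0, in the 3 libraries of each group (Neu, neutrophils; Mac, macrophages; open points, saline; filled points, CGRP), with the mean and SD as bars. The CGRP points of Clec4e lie above the saline points in both cell types, while Clec5a lies near 0 in macrophages.

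Clec12a, which encodes the inhibitory receptor MICL, a sensor of uric acid crystals, fell in neutrophils. The saline neutrophils were at 308, 331 and 303 CPM and the CGRP neutrophils at 208, 197 and 196 CPM. All CGRP libraries were below all saline libraries, and the log2 fold change was -0.63 (SE 0.082, limma-voom adjusted p = 6.77e-05). In macrophages Clec12a was at 302, 359 and 273 CPM under saline and at 251, 211 and 206 CPM under CGRP, again without overlap. The log2 fold change there was -0.47 (SE 0.14) and its limma-voom adjusted p of 0.0536 was just over the threshold, whereas edgeR's quasi-likelihood test gave an adjusted p of 0.0499 and DESeq2 one of 0.0399. In all, 8 of 10 alternatives passed, as did the fits without saline replicate 3 and without CGRP replicate 1 (limma-voom adjusted p = 0.0244 and 0.0211).

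Of the 3 genes of the DCIR family, Clec4a1 rose in macrophages. Clec4a1 was at 42.5, 44.3 and 38.0 CPM in saline neutrophils and at 53.7, 54.9 and 54.1 CPM in CGRP neutrophils. Although the CGRP libraries were close to each other and all above saline, the log2 fold change of 0.39 (SE 0.12) did not pass (limma-voom adjusted p = 0.122). In macrophages Clec4a1 was at 139, 147 and 194 CPM under saline and at 217, 250 and 252 CPM under CGRP. This 1.52-fold rise passed (log2 fold change 0.60, SE 0.15, limma-voom adjusted p = 0.0187). Clec4a2, the gene of DCIR itself, read 347 ± 25.4 CPM in saline neutrophils and 326 ± 71.7 CPM in CGRP neutrophils (log2 fold change -0.09, 95% interval -0.33 to 0.15), and CGRP replicate 3 was the lowest of the 6. In macrophages it read 342 ± 41.6 CPM under saline and 439 ± 26.3 CPM under CGRP without overlap (log2 fold change 0.37, SE 0.13, limma-voom adjusted p = 0.112). Clec4a3 had log2 fold changes of 0.28 (SE 0.13) in neutrophils and 0.24 (SE 0.14) in macrophages, and in both its CGRP libraries overlapped those of saline.

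Clec5a (ENSMUSG00000029915, chr6:40574894-40585821, minus strand) encodes MDL-1, a DAP12-coupled receptor, and lies apart from the other chromosome 6 receptor genes. Its counts in the macrophages were 63, 47 and 40 under saline and 29, 18 and 8 under CGRP, or 18.0, 14.0 and 14.3 CPM against 9.06, 6.63 and 4.01 CPM. The CGRP libraries were all lower, and the last of them rested on few counts. The log2 fold change was -1.20 (SE 0.31, limma-voom adjusted p = 0.0268). In neutrophils, where Clec5a was at 163 ± 3.04 CPM under saline and 146 ± 6.90 CPM under CGRP, the log2 fold change was -0.15 (SE 0.088, limma-voom adjusted p = 0.518).

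Clec7a encodes Dectin-1, the receptor for fungal beta-glucan, and GENCODE M21 lists it as a polymorphic pseudogene. It was at 173 ± 16.6 CPM in saline neutrophils and 165 ± 8.42 CPM in CGRP neutrophils, with a log2 fold change of -0.05 (95% interval -0.24 to 0.14). In macrophages it was at 192, 263 and 195 CPM under saline and at 324, 285 and 274 CPM under CGRP. The second saline macrophage library came near the CGRP libraries, and the log2 fold change of 0.46 (SE 0.15) did not pass (limma-voom adjusted p = 0.0721). It passed in 3 of 10 alternatives (lowest adjusted p 0.0128) and, without that saline library, with a log2 fold change of 0.61 (limma-voom adjusted p = 0.0100). Clec10a encodes MGL1, a receptor for galactose and N-acetylgalactosamine. It had log2 fold changes of 0.02 in neutrophils (95% interval -0.75 to 0.78) and -0.27 in macrophages (95% interval -0.63 to 0.08), and its groups overlapped in both cell types. Of the possible 31-base stretches in the last 500 bases of its transcript, 24.7% are also in Mgl2, its neighbouring gene copy, so reads of these 2 genes may have been split. For the other 9 receptor genes this share was 0%.

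The macrophage calls of Clec4a1 and Clec5a depended on single libraries. Without saline replicate 1, CGRP replicate 2 or CGRP replicate 3, only Clec4e and Clec4n still passed among the 10 genes. The adjusted p values of limma-voom for Clec4a1 were then 0.155, 0.108 and 0.0810, and those for Clec5a were 0.129, 0.120 and 0.110. The same 3 omissions also lowered the number of all genes called from 698 to 347, 348 and 439.

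Markers of other cell types moved beside some of these changes. The 14 monocyte and macrophage markers summed to 4473 ± 371 CPM in saline neutrophils and 3787 ± 468 CPM in CGRP neutrophils, with overlapping libraries and Ly6c2 as the most abundant at 2688 ± 389 and 2244 ± 399 CPM. Of 13 markers tested in neutrophils, 1 was lower, beside 1.02% of all genes, and the median log2 fold change of the 13 was -0.22. The lower marker was Ccr2, the receptor of CCL2, at 315 ± 8.95 CPM under saline and 222 ± 17.3 CPM under CGRP (log2 fold change -0.49, SE 0.084, limma-voom adjusted p = 0.00134). Mertk, a macrophage marker, had counts of 0 to 5 in the neutrophil libraries. The saline and CGRP neutrophil libraries did not overlap for 6 of the 13, of which 5 were below saline and 1, Cd68, was above, beside 17.8% of all genes. Those below were Ccr2, Adgre1 (log2 fold change -0.50, SE 0.15), Cx3cr1 (-0.39, SE 0.11), F13a1 (-0.28, SE 0.086) and Ms4a6c (-0.22, SE 0.080). The last 4 had limma-voom adjusted p values of 0.0934, 0.0843, 0.0956 and 0.201. Adgre1 passed without saline neutrophil replicate 3 (limma-voom adjusted p = 0.0418), and F13a1 passed without the filter on low counts (limma-voom adjusted p = 0.0478). Csf1r, the receptor for M-CSF, overlapped, at 199 ± 15.8 CPM in saline neutrophils and 180 ± 10.1 CPM in CGRP neutrophils. The 8 dendritic cell markers summed to 161 ± 6.58 CPM in saline and 184 ± 9.59 CPM in CGRP neutrophils, without overlap, and the most abundant was H2-Ab1, a class II histocompatibility gene that macrophages also express, at 122 to 131 CPM under saline and 133 to 157 CPM under CGRP. Of 5 tested, 3 had all CGRP libraries above saline without passing, beside 17.8% of all genes. These were Siglech, Itgax and H2-Ab1. Itgax had a log2 fold change of 0.46 (SE 0.24) and H2-Ab1 one of 0.21 (SE 0.093), with limma-voom adjusted p values of 0.439 and 0.348. Siglech had 16, 11 and 8 counts under saline and 18, 18 and 15 under CGRP. It passed the filter on low counts only through the CGRP libraries, so no fold change is given and its separation is not read as a result. Xcr1 had at most 2 counts and Zbtb46 at most 5 in a neutrophil library. The part of monocyte and dendritic cell RNA in the fall of Clec12a and in the rises of Clec4d, Clec4e and Clec4n was not tested. The 12 neutrophil markers had a median log2 fold change of -0.14 in these libraries and summed to 173550 ± 23249 CPM under CGRP.

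In macrophages the monocyte and macrophage markers summed to 11985 ± 268 CPM under saline and 13397 ± 886 CPM under CGRP. Of 14 tested, 2 were lower, beside 3.97% of all genes. These were Ccr2 (log2 fold change -0.81, SE 0.12) and the fractalkine receptor Cx3cr1 (-1.36, SE 0.18), with limma-voom adjusted p values of 4.80e-04 and 1.43e-04. Another 5, Ly6c2, C1qa, C1qb, C1qc and Ms4a6c, had all CGRP libraries above saline without passing, so that 7 of the 14 were apart beside 24.1% of all genes. Ms4a6c had a log2 fold change of 0.43 (SE 0.13, limma-voom adjusted p = 0.0683) and passed in 4 of 10 alternatives (lowest adjusted p 0.0107), and its difference between the cell types passed (0.66, SE 0.15, limma-voom adjusted p = 0.0178). The 8 dendritic cell markers summed to 1569 ± 162 CPM under saline and 2136 ± 173 CPM under CGRP, nearly all of it from H2-Ab1. H2-Ab1 was the only 1 of 3 tested to pass, beside 7.43% of all genes (log2 fold change 0.46, SE 0.13, limma-voom adjusted p = 0.0347). Its call was lost without saline replicate 1 or 3 or CGRP replicate 2 or 3 (limma-voom adjusted p 0.0729 to 0.179). Cd209a had 6, 13 and 4 counts under saline and 15, 14 and 12 under CGRP in macrophages, so that it passed the filter on low counts only through the CGRP libraries, and no fold change is given. In the macrophage libraries Xcr1 had no count, Zbtb46 and Flt3 had at most 2 counts in a library, and Siglech had 2 to 8. The neutrophil markers summed to 429 ± 15.0 CPM in CGRP macrophages against the 344 ± 46.6 CPM under saline, without overlap. The 8 neutrophil markers tested in macrophages had a median log2 fold change of 0.38, the smallest limma-voom adjusted p being the 0.227 of Retnlg. Of these 8, 2 were apart, Retnlg and Ngp, with all CGRP libraries above saline, beside 24.1% of all genes apart. S100a8 was the most abundant, and Ly6g had at most 3 counts in a macrophage library. The part of these cells in the macrophage results was not tested. The B cell markers summed to 148 ± 6.99 and 160 ± 17.3 CPM in saline and CGRP neutrophils, with overlap. In saline and CGRP macrophages they summed to 32.3 ± 1.14 and 38.9 ± 1.53 CPM, without overlap. The T and NK cell markers summed to 122 ± 7.85 and 98.1 ± 13.9 CPM in saline and CGRP neutrophils, without overlap, and to 0.704 ± 0.300 and 0.933 ± 0.557 CPM in macrophages. The platelet and megakaryocyte markers summed to 167 ± 1.25 and 170 ± 37.9 CPM in neutrophils and to 760 ± 186 and 789 ± 165 CPM in macrophages, where Pf4 gave nearly all of it. Under CGRP the erythroid, mast cell and basophil, and eosinophil markers summed in neutrophils to 5922 ± 708, 1044 ± 92.9 and 585 ± 57.1 CPM. In all 6 macrophage libraries these last 3 lists summed to at most 22.8 CPM each.

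Whether CGRP acted unequally on a receptor gene in neutrophils and macrophages was asked with an interaction term over all 12 libraries. Of the 10 genes, 1 passed, against 2.36% of 10694 genes tested (1.21% with a higher and 1.15% with a lower fold change in macrophages). For Clec4d, the log2 fold change in macrophages was lower than in neutrophils by 0.67 on the log2 scale (difference -0.67, SE 0.17, limma-voom adjusted p = 0.0383). This call held in 3 of 12 fits that each left out a library, those without CGRP neutrophil replicate 2, saline macrophage replicate 3 or CGRP macrophage replicate 1, and in the other 9 the adjusted p rose to as much as 0.121. For Clec5a the difference was -1.03 (SE 0.30, limma-voom adjusted p = 0.0738), and it passed with edgeR's quasi-likelihood test (adjusted p = 0.0332) and with DESeq2 (adjusted p = 0.0237). The differences of Clec4e, 0.33 (95% interval -0.09 to 0.75), and Clec4n, 0.30 (95% interval -0.10 to 0.70), did not pass. That of Clec12a was 0.17 (95% interval -0.16 to 0.51). Clec7a had a difference of 0.52 (95% interval 0.16 to 0.89, limma-voom adjusted p = 0.144). It passed with quality weights (limma-voom adjusted p = 0.0327) and without saline macrophage replicate 2 (limma-voom adjusted p = 0.0219). Clec4a2 had 0.48 (95% interval 0.09 to 0.86, limma-voom adjusted p = 0.239).

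Under saline, most receptor genes differed in level between the cell types. Of the 10, 5 were higher in macrophages and 2 were lower, against 32.5% and 35.4% of the 10694 genes tested, so that the share of receptor genes called was close to that of all genes (67.9%). The saline libraries of the cell types did not overlap for 7 of the 10, beside 70.4% of all genes. Cell type cannot be told apart here from the 3 days of culture, the medium or the table the counts came from. Clec10a differed by 2.81 on the log2 scale (SE 0.29), at 57.1 ± 4.02 CPM in saline macrophages and 8.52 ± 3.15 CPM in saline neutrophils. Clec4a1, Clec4a3 and Clec4d were higher in macrophages by 1.91, 1.79 and 1.43 on the log2 scale, with SE of 0.14, 0.14 and 0.13. Clec7a was higher by 0.30 (SE 0.12, limma-voom adjusted p = 0.0350), a call that held in 8 of 12 fits that each left out a library and was lost without saline neutrophil replicate 1 or 3, CGRP neutrophil replicate 2 or saline macrophage replicate 2 (adjusted p up to 0.246). It was also lost in 4 of 9 alternatives, with DESeq2 (adjusted p = 0.0528), at least 10 counts in every library (0.0666), quality weights (0.0615) and thinned counts (0.0932). Clec4e and Clec5a were lower in macrophages, with log2 differences of -2.01 (SE 0.15) and -3.39 (SE 0.17), and for Clec5a this was a 10.5-fold difference. The 3 genes whose levels did not pass were Clec4a2 (95% interval -0.31 to 0.24), Clec4n (-0.23 to 0.36) and Clec12a (-0.26 to 0.21).

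Placed in order, the 4 groups took different ranks from gene to gene. Clec4e ran from CGRP neutrophils through saline neutrophils and CGRP macrophages to saline macrophages, with no overlap between any neighbours. Clec5a had both neutrophil groups above both macrophage groups, and Clec4a1 the reverse, each without overlap between neighbours. For Clec4d the CGRP neutrophils at 236 ± 18.4 CPM overlapped the saline macrophages at 291 ± 42.1 CPM, while the CGRP macrophages at 399 ± 44.1 CPM were highest and the saline neutrophils at 107 ± 7.86 CPM lowest. Clec4n was highest in CGRP macrophages and next highest in CGRP neutrophils, and the 2 saline groups overlapped. For Clec12a the 2 saline groups overlapped each other at the top and the 2 CGRP groups overlapped each other below. Clec4a2 was apart only in the CGRP macrophages, and the remaining 3 groups overlapped. Clec4a3 and Clec10a split by cell type with overlap within it, and Clec7a was highest in CGRP macrophages, then saline macrophages, with the neutrophil groups overlapping. Levels of different genes were not set against each other, because a dT-primed library reads the 3′ end of a transcript and not its whole length.

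The receptor genes of the Clec4 group lie side by side. From Clec4a1 to Clec4e, 368 kb of chromosome 6 hold 13 annotated genes, of which 6 are among the 10 receptor genes. At the distal end, Clec4n, Clec4d and Clec4e are consecutive genes, and these 3 are those that rose in neutrophils. In macrophages, Clec4n and Clec4e rose and Clec4d, which lies between them, had the unpassed value of 0.46. Clec4b1, which lies between Clec4a3 and Clec4a2 and encodes another C-type lectin of this group, had log2 fold changes below 0 in both cell types. In macrophages it was at 204 ± 42.7 CPM under saline and 148 ± 20.3 CPM under CGRP (-0.44, SE 0.16, limma-voom adjusted p = 0.121), and 3 of 10 alternatives passed (lowest adjusted p 0.0151). Only 8 genes of the stretch had enough counts to be tested in neutrophils and 7 in macrophages. Apart from a pseudogene without any count inside Clec4a2, no annotated gene overlapped a receptor gene.

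**Figure D3:**
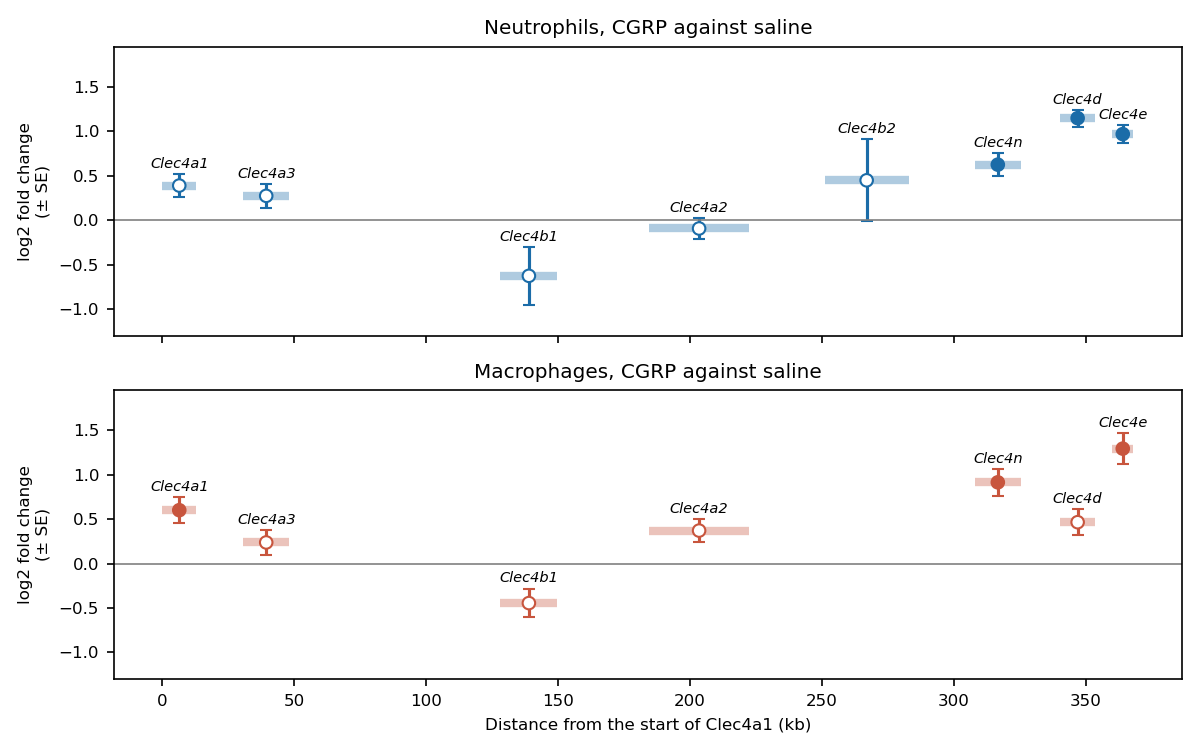
Log2 fold change of CGRP against saline (± SE) for the tested genes of the Clec4 stretch, by distance in kb from the start of Clec4a1, in neutrophils above and macrophages below. Pale bars span each gene, and filled points have an adjusted p under 0.05. Clec4n, Clec4d and Clec4e at the right end are filled in neutrophils, and Clec4d is open in macrophages at 0.46.

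Among the signalling partners of these receptors, the gene of the phosphatase SHP-1 fell under CGRP in both cell types. Of 22 listed adaptors and signalling proteins, 21 were tested in each cell type. In neutrophils 1 was lower and in macrophages 2 were lower, or 4.76% and 9.52% of those tested, near the 2.53% and 7.43% of all genes. Their median log2 fold changes were -0.10 in neutrophils and -0.04 in macrophages. Ptpn6, the gene of SHP-1, which binds inhibitory motifs, was at 586 ± 42.6 CPM in saline neutrophils and 435 ± 27.3 CPM in CGRP neutrophils (log2 fold change -0.42, SE 0.082, limma-voom adjusted p = 0.00499). That call was lost without saline neutrophil replicate 1 (limma-voom adjusted p = 0.0825). In macrophages Ptpn6 went from 244 ± 18.7 to 117 ± 8.98 CPM (-1.05, SE 0.13, limma-voom adjusted p = 8.37e-05), and this passed without any one library. The difference between the cell types was -0.62 (SE 0.15, limma-voom adjusted p = 0.0269), and it passed in 6 of 12 fits that each left out a library.

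Fcer1g and Tyrobp, the genes of the chains with which some of the activating receptors pair, had at least 6461 and 7656 counts in every library. Fcer1g, the Fc receptor gamma chain, was at 3181 ± 236 and 2867 ± 252 CPM in saline and CGRP neutrophils and at 4087 ± 358 and 4446 ± 24.3 CPM in saline and CGRP macrophages. Its log2 fold changes were -0.14 (SE 0.081) and 0.13 (SE 0.12). The neutrophil value passed in 1 of 10 alternatives, without the filter on low counts (limma-voom adjusted p = 0.0338). Tyrobp, the gene of DAP12, had log2 fold changes of -0.04 in both (SE 0.087 and 0.15). Syk was 0.12 (SE 0.10) in neutrophils and 0.51 (SE 0.18) in macrophages, where its limma-voom adjusted p was 0.115 and 3 of 10 alternatives passed (0.0116 to 0.0433). Card9 had -0.79 in neutrophils (SE 0.22, limma-voom adjusted p = 0.0582), at counts between 41 and 116. In macrophages it had 25, 27 and 18 counts under saline and 13, 16 and 5 under CGRP. The CGRP macrophage libraries alone would not have passed the filter on low counts. Card9 passed it with the saline libraries, where it was higher, so no fold change is given for macrophages. In neutrophils it passed in 3 of 10 alternatives (adjusted p 0.0256 to 0.0315), and its log2 fold change ran from -1.10 to -0.48 when a library was left out.

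Among 19 genes known as outputs of this pathway, 9 were tested in each cell type. In neutrophils 1 of them rose, which is 11.1% against 2.53% of all genes, and the median was 0.06. In macrophages 1 rose and 5 fell, beside 7.43% of all genes, and 1 of the 5, Tnf, passed the filter on low counts only through the saline libraries, where it was higher. Il1b, the gene of interleukin-1 beta, rose in both. It was at 92.1 ± 7.15 and 190 ± 26.4 CPM in saline and CGRP neutrophils (log2 fold change 1.06, SE 0.11, limma-voom adjusted p = 3.22e-06) and at 4.33 ± 0.980 and 56.2 ± 5.86 CPM in macrophages (3.71, SE 0.29, limma-voom adjusted p = 6.41e-07). The chemokine genes Ccl2, Ccl3 and Ccl4 fell in macrophages, with log2 fold changes of -2.05, -1.58 and -1.87 (SE 0.23, 0.24 and 0.21), and so did the transcription factor gene Egr2 at -2.46 (SE 0.20). In neutrophils the values of Ccl2, Ccl3 and Ccl4 were 0.06, 0.03 and 0.16, with limma-voom adjusted p values of 0.903, 0.979 and 0.793. Tnf, the gene of tumour necrosis factor, rested on few molecules in macrophages, with 47 counts over the 3 saline libraries and 7 over the 3 CGRP libraries. Because Tnf passed the filter on low counts only through the saline libraries, no fold change is given and its fall is not read as a result.

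**Figure D4:**
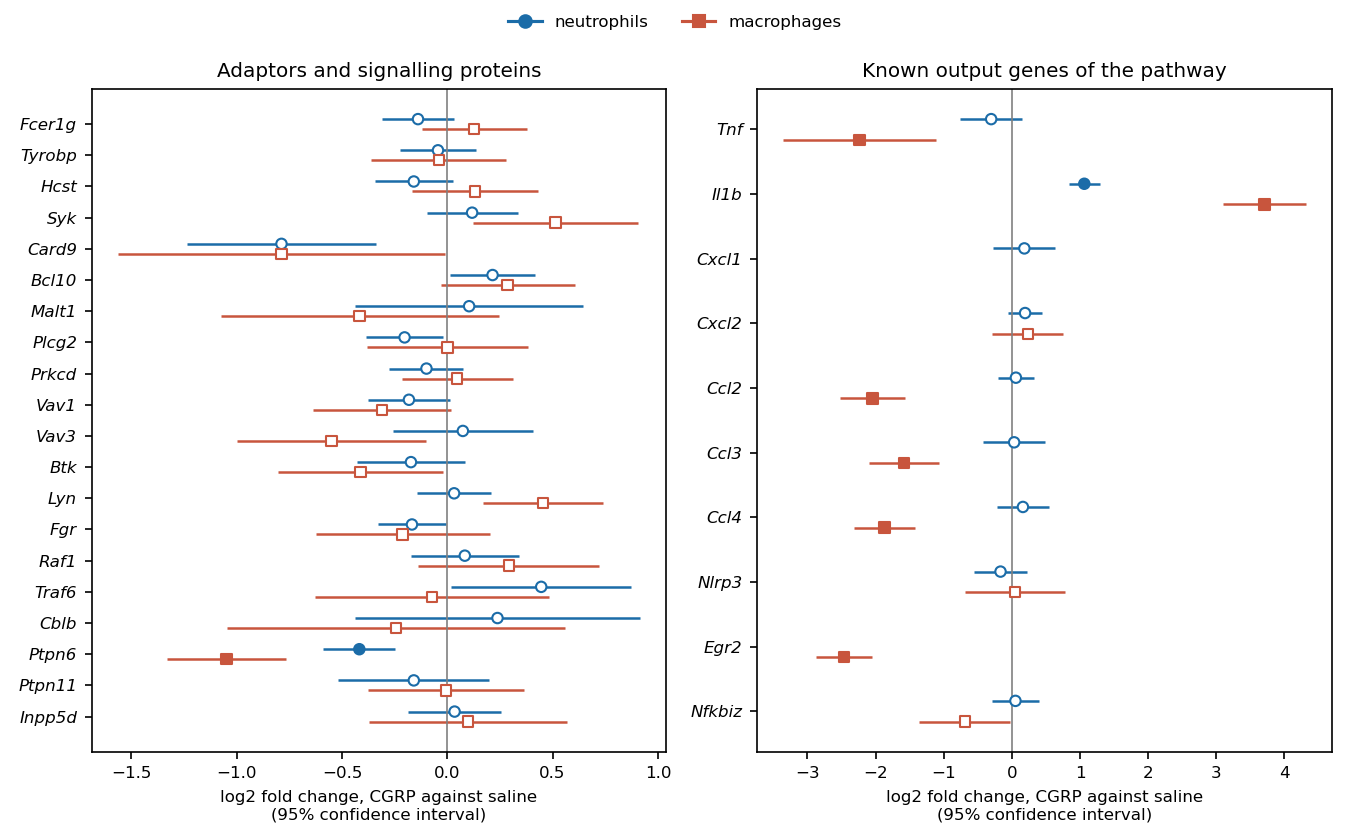
Log2 fold change of CGRP against saline with 95% confidence intervals for 20 of the tested adaptors and signalling proteins (left) and output genes (right), in neutrophils (circles) and macrophages (squares). Filled symbols have an adjusted p under 0.05. Ptpn6 is filled in both cell types on the left, and Il1b on the right reaches 3.71 in macrophages. The macrophage symbols of Card9 and Tnf are drawn but not read, because these genes passed the filter on low counts with the saline libraries, where they were higher.

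Of 29 other C-type lectin receptor genes, 14 were tested in neutrophils and 10 in macrophages. The smallest adjusted p in neutrophils was 0.446 by limma-voom, that of Clec4b1, and the median log2 fold change was -0.07. In macrophages 1 of 10 was lower, beside 7.43% of all genes. This was Cd72, an inhibitory receptor best known from B cells, at 123 ± 26.0 CPM under saline and 75.6 ± 14.1 CPM under CGRP (log2 fold change -0.68, SE 0.18, limma-voom adjusted p = 0.0332). The call of Cd72 was lost without saline replicate 1 or 2 or CGRP replicate 2 or 3 (adjusted p 0.0791 to 0.180). Of the B cell markers, Cd79b had 111, 109 and 87 counts in the saline and 119, 108 and 74 counts in the CGRP macrophages. Its levels were 31.8 ± 0.697 and 38.0 ± 1.53 CPM, without overlap (log2 fold change 0.26, SE 0.17, limma-voom adjusted p = 0.427). Ebf1 had 0 to 3 counts a library, and Cd79a, Ms4a1 and Vpreb3 had none in the macrophages. The part of B cell RNA in the fall of Cd72 was not tested.

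How closely the receptor genes followed each other over the libraries differed by pair and cell type. Over the 6 neutrophil libraries, which share the CGRP contrast, Pearson's r of log2 CPM was 0.981 between Clec4d and Clec4e, 0.973 between Clec4e and Clec4n and 0.947 between Clec4d and Clec4n, and it was 0.945 between Clec4d and Clec4a1. Over the 6 macrophage libraries it was 0.988 between Clec4e and Clec4n, 0.889 between Clec4d and Clec4e and 0.838 between Clec4d and Clec4n, while Clec4d had 0.989 with Clec4a2 and 0.909 with Clec7a. Among the 9805 other genes that passed the filter both in neutrophils and over all 12 libraries, the 3 most like Clec4d over the 12 libraries were Cd300ld (r = 0.978), Fos (0.972) and Cd300a (0.957), and over the 6 neutrophil libraries they were Prkar1a (1.00), Hif1a (0.997) and Klhdc4 (0.994). Among the 9392 that passed it in macrophages and over all 12 libraries, those most like Clec4e over the 12 libraries were Fxyd5 (0.980), Slc16a3 (0.980) and Dgat1 (0.979), and over the 6 macrophage libraries Acot1 (0.993), Uck1 (0.991) and 5530601H04Rik (0.990). These are the highest of the values for these genes, over few libraries that share treatment and cell type, and are given as a description.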

How the data were processed

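RNA of 12 libraries (4 groups of 3) was primed with dT, tagged with unique molecular identifiers and sequenced. The authors deposited a table of raw counts per gene for each cell type. Per the study's methods and the labels, reads went through nfCore/RNAseq, where UMIs served to drop PCR copies, STAR aligned them to GRCm38 and featureCounts counted them. The annotation release, strand setting and any filter on low counts are not given in the sources used here. The values were whole numbers, and no pair of libraries was identical.

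Groups came from the labels. Genes were kept by filterByExpr, which left 9819 genes in neutrophils, 9393 in macrophages and 10694 over all 12 libraries. TMM scaling and limma-voom (limma 3.58.1, edgeR 4.0.16, R 4.3.3) compared CGRP with saline on the 6 libraries of a cell type. The interaction and the comparison of the saline groups used all 12 libraries. Log2 fold changes come from these fits, and levels are CPM scaled by TMM over 12 libraries. The scripts were tested on simulated data with known changes. The alternatives tried were DESeq2 (1.42.0), the quasi-likelihood test of edgeR, DESeq2 size factors or library totals in place of TMM, no filter, a minimum of 10 counts in every library, quality weights, a replicate block, thinned counts, a single fit over 12 libraries and leaving out each library. Floors cover counting error only. Gene positions came from GENCODE M21, which held 52489 of the 52636 identifiers, and promoter sequences from RefSeq (GRCm38.p6).

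The receptor genes, the lists of partners, outputs, other lectin receptors and cell type markers, and the tests were chosen with earlier results of these data known. All 10 receptor genes were named. Of the partner, output and other lectin lists, Fcer1g, Tyrobp, Syk and Card9 were always named and the others where the adjusted p was under 0.05 in a CGRP comparison or the interaction. Of the markers, the most abundant, those at 0 and those that passed were named, and Csf1r, Cd68, Adgre1, F13a1, C1qa, C1qc, Retnlg, Ngp, Cd209a, Siglech, Itgax, Flt3, Cd79b and Ebf1 were chosen after their values were seen. Clec4b1 was named as a neighbour of the receptor genes. 1 gene that passed among the signalling partners in macrophages is not reported here.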

Additional observations from a re-analysis of the deposited data

Results flagged for a closer look

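For 9 genes named above, the test of the difference itself passed the threshold for an unequal effect of CGRP in the 2 cell types (limma-voom over 12 libraries, macrophage minus neutrophil log2 fold change, n = 3 libraries per group). Clec4d was the only receptor gene among them, with a difference of -0.67 and an adjusted p of 0.0383. The call held in 7 of 9 alternatives and in 3 of 12 fits that each left out a library. Clec4d rose in neutrophils by 1.15 and had 0.46 in macrophages. In macrophages its own test did not pass but 4 of 10 alternatives did (lowest adjusted p 0.0118). All 3 CGRP libraries were above all 3 saline libraries in both cell types. Ptpn6, which encodes SHP-1, had a difference of -0.62 (adjusted p = 0.0269), with a fall in both cell types. It passed in 6 of 12 fits that each left out a library. Il1b had a difference of 2.66 (adjusted p = 1.26e-05), with a rise in both. The chemokine genes had differences of -2.10 for Ccl2 (adjusted p = 2.94e-05), -1.60 for Ccl3 (adjusted p = 0.00773) and -2.02 for Ccl4 (adjusted p = 9.39e-05), each with a fall in macrophages alone past the threshold. Egr2 had a difference of -2.11 (adjusted p = 0.0191). It did not pass the filter on low counts in neutrophils, where it had counts of 4 to 12, and entered the fit over 12 libraries through the macrophage libraries, where it was high, so the difference rests on few neutrophil counts and no effect in neutrophils is read from it. This call was lost without saline neutrophil replicate 1 or CGRP neutrophil replicate 1 or 2 (adjusted p up to 0.0938). Cx3cr1, a monocyte marker, had a difference of -0.96 (adjusted p = 0.0114), which was lost without CGRP macrophage replicate 2 (adjusted p = 0.0599). Ms4a6c, also of the monocyte and macrophage list, had a difference of 0.66 (adjusted p = 0.0178), with the CGRP libraries below saline in neutrophils and above it in macrophages and with neither cell type past the threshold on its own, though in macrophages it passed in 4 of 10 alternatives (lowest adjusted p 0.0107). This call was lost without any one of the saline neutrophil replicates, CGRP neutrophil replicate 2 or saline macrophage replicate 1 (adjusted p up to 0.0955).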

How the results depend on the processing

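The number of receptor genes called in neutrophils was 4 under each of 10 alternatives and 3 to 4 when a library was left out. In macrophages it was 4, with 3 to 7 under the alternatives and 2 to 6 with a library left out. It was 7 with quality weights, with the replicate block and with the single fit over 12 libraries. There Clec4d, Clec7a and Clec12a joined the 4. The interaction called 1 receptor gene, and 2 with edgeR, 2 with DESeq2, 2 with the replicate block, 3 with quality weights, 0 without a filter and 0 with thinned counts, where 4 and 4 had an unadjusted p under 0.05 by limma-voom, and 0 to 2 with a library left out, where 3 to 6 had an unadjusted p under 0.05. Between the saline groups 7 were called, 5 to 7 under the alternatives and 6 to 7 with a library left out. Of all genes, 248 were called in neutrophils and 137 by the single fit (138 to 234 with a library left out), 698 in macrophages and 1406 with quality weights and 1050 by the single fit (347 to 765), and 252 in the interaction and 520 with quality weights (149 to 328). Values near 0 changed sign. In neutrophils, library totals without TMM gave 0.00233 for Clec7a and 0.00450 for Tyrobp, thinned counts -0.00380 and the single fit -0.00235 for Clec10a, and the replicate block -2.25e-04 for Ccl3. Leaving out a library there gave -0.374 to 0.530 for Clec10a, -0.224 to 0.0734 for Clec4a2, -0.0952 to 0.0387 for Tyrobp, -0.159 to 0.234 for Ccl3 and -0.0651 to 0.192 for Ccl2, and in macrophages -0.171 to 0.136 for Tyrobp. In the interaction, quality weights gave 0.00392 for Clec4a3, and leaving out a library gave -0.131 to 0.0594 for Clec4a3 and -0.820 to 0.0965 for Clec10a. Between the saline groups, library totals gave 0.0687 for Clec4a2 and 0.0765 for Clec12a, thinned counts 0.0105 for Clec12a, and leaving out a library -0.0926 to 0.0756 and -0.128 to 0.0667 for these genes. The causes were not tested. Samples with the same replicate number did not all deviate together, with correlations of -0.0142 to 0.141 in neutrophils and -0.185 to 0.282 in macrophages and 1 of 3 pairs over 0.1 in each, so the numbers were not treated as pairs. Depth limits Clec10a and Clec4b1 in neutrophils and Clec5a, Card9 and Tnf in macrophages, which rest on few counts. With the replicate block Card9 in neutrophils (adjusted p = 0.0315) and Syk (0.0329), Clec4b1 (0.0467) and Ms4a6c (0.0446) in macrophages also passed.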
